A study of Mus musculus with 9 samples.

Results

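The NADPH oxidase subunits Cybb, Cyba, Ncf1, Ncf4 and Rac2, the oxidase Nox4 and the xanthine oxidase gene Xdh were described in isolated mouse glomeruli. They are 7 genes, chosen by name because their enzymes make superoxide or hydrogen peroxide. On the arrays they had 17 probes among 56605 non-control probes, 12 of these passed the filter on dim probes, and all 7 genes were among the 24150 features tested. A probe passed when all arrays of 1 or more groups read it well above background. The main Cybb probe passed only through the ob/ob groups, as it was well above background on 2 of 3 wild-type arrays.

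RNA came from glomeruli, the capillary tufts that filter blood, isolated with magnetic beads from male BTBR mice aged 22 weeks. One group was ob/ob mice given enarodustat in the food for 18 weeks, the next was ob/ob mice given vehicle food, and the last was wild-type BTBR mice given vehicle food. Enarodustat is an inhibitor of HIF prolyl hydroxylases, enzymes that target hypoxia-inducible factor (HIF) for breakdown. All ob/ob mice, the vehicle group included, carry the ob mutation of the leptin gene, and on the BTBR background such mice grow obese and diabetic. Each group had 3 samples, each on its own single-colour Agilent array. The labels do not say whether a sample was 1 mouse or a pool, so p-values measure only the spread between these samples.

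In phagocytes, Cybb (the catalytic subunit) and Cyba (its membrane partner) form a flavocytochrome that passes electrons from NADPH to oxygen. The complex is switched on when the cytosolic subunits, Ncf1 and Ncf4 among them, and the GTPase Rac2 join it at the membrane. Nox4 is a related oxidase that uses Cyba but none of the cytosolic subunits, is abundant in kidney and releases mainly hydrogen peroxide. Xdh oxidises hypoxanthine to xanthine and xanthine to urate, and in its oxidase form hands the electrons to oxygen.

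The promoters of Cybb and Nox4 are printed because Cybb moved with the ob/ob genotype while Nox4 did not pass the test. They run from 250 bases before to 50 bases after the start of the gene, on the strand of the gene, in RefSeq's annotation of GRCm38.p6. Cybb lies at chrX:9469275-9469574 on the minus strand, and the capitals mark the letters GAGGAA, the core bound by the myeloid factor PU.1, read on the opposite strand. Nox4 lies at chr7:87246399-87246698 on the plus strand, and the capitals mark the letters GCGTG, a core bound by hypoxia-inducible factor.
Cybb promoter: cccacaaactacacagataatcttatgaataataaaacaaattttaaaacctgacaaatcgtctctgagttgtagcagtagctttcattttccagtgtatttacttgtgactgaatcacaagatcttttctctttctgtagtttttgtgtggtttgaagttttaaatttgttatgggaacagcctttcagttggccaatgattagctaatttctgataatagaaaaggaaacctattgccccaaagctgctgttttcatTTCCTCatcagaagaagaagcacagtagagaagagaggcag
Nox4 promoter: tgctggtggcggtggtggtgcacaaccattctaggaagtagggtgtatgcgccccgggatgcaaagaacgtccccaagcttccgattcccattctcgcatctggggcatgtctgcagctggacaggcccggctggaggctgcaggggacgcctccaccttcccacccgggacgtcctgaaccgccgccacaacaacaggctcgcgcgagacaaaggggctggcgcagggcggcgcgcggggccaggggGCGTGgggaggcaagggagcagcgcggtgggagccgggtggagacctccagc
Searched on both strands, GAGGAA was found in 28.3% of all 32851 promoter windows, GCGTG in 32.4% and the other hypoxia core ACGTG in 19.6%, with 43.8% holding either hypoxia core. The Cybb match began 10 bases after the start of the gene and the Nox4 match 2 bases before it (position -2). None of the 3 motifs was found in the Cyba and Ncf1 windows. The table held a window for 4 of the 7 genes, and Ncf4, Rac2 and Xdh were not among them. A match is a description of the letters, not evidence of binding.

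For Nox4 and Xdh the reading depended on the probe, so the probes concerned are printed, as given in the array files with positions in build mm9. Each is 60 bases long. The first Nox4 probe lies at chr7:94436116-94436175 and the second at chr7:94545342-94545401, both on the plus strand. The second Xdh probe is on the minus strand at chr17:74246364-74247023, a stretch of 660 bases, so it spans an intron.
Nox4 probe 1: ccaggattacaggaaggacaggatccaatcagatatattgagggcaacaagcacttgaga
Nox4 probe 2: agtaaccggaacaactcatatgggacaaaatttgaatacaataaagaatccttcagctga
Xdh probe 2: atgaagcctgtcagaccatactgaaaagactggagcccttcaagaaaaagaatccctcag
The other probes read for a gene lie at chrX:9014314-9014373 for Cybb, chr8:124948726-124948785 for Cyba, chr5:134696380-134696439 for Ncf1 and chr17:74233511-74233570 for Xdh, all on the minus strand. Those of Ncf4 at chr15:78092903-78092962 on the plus strand and Rac2 at chr15:78391452-78391511 on the minus strand share a chromosome. The exon or UTR under each probe was not assigned.

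All levels are log2 of the processed signal relative to the 75th percentile of the same array, so that 0 is the 75th percentile and negative values lie below it. Levels of different genes come from different probes and are not set against each other. Arrays are given as replicates 1, 2 and 3 of each group. A difference is called when its limma p, adjusted by the Benjamini-Hochberg method over all 24150 features, is under 0.05. The 75th percentile lay between 210.4 and 325.3 signal units, between 62.3% and 68.3% of probes were well above background on an array, and no spot was saturated. Podocyte, endothelial and mesangial markers were all detected (7 of 7, 6 of 6 and 5 of 5). Wild-type replicate 3 and enarodustat replicate 2 stood high in proximal tubule markers, and enarodustat replicate 3 was alone on slide 2, with the other 8 arrays on slide 1.

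Compared with wild type, ob/ob vehicle glomeruli had higher levels of 4 of the 5 phagocyte oxidase subunits and of Xdh, while Cyba and Nox4 did not pass the test. That is 5 of 7 genes called, all higher, where 7.55% of all features were called and 4.89% were called higher. The same 5 genes had groups that did not overlap, with ob/ob higher, as did 17.8% of all features. The median difference was 1.59 on the log2 scale over the 7 genes and 0.02 over all features. Cybb passed the filter only through the ob/ob groups, and with tests limited to probes that all 9 arrays read well above background, 4 of 6 genes were called. As the genes were chosen with earlier results known, these counts describe them and are no independent evidence.

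Cybb, the catalytic subunit, read -2.10, -2.40 and -2.93 on the ob/ob vehicle arrays and -4.27, -4.29 and -5.56 on the wild-type arrays. The groups did not overlap, and wild-type replicate 3, not well above background, was the lowest. The fitted difference was 2.23 ± 0.39 on the log2 scale (SE), or 4.69-fold higher (adjusted p = 0.0123), and 1.80 without wild-type replicate 3. Both values come from a probe admitted by the groups where it was high, with 2 of 3 wild-type arrays well above background, so its call has less weight than those of the other genes. A second Cybb probe was well above background on 1 of 3 ob/ob enarodustat arrays, 2 of 3 ob/ob vehicle arrays and 0 of 3 wild-type arrays and was not tested. In a bulk sample, more cells of a type and more RNA per cell cannot be told apart.

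Cyba, the membrane partner of both Cybb and Nox4, read 4.06, 4.25 and 4.20 on the ob/ob vehicle arrays and 3.92, 3.73 and 4.53 on the wild-type arrays. The groups overlapped, and wild-type replicate 3 was the highest of all 6. The difference was 0.11 ± 0.21 (SE), with a 95% interval of -0.36 to 0.58 and an adjusted p of 0.803. It was -0.06 without wild-type replicate 2, -0.01 after quantile normalization and -0.12 as the mean of the gene's probes. The other Cyba probes differed by -0.42 and -0.06, and neither was called.

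Ncf1, the p47phox organiser that carries the cytosolic complex to the membrane, read -2.83, -3.41 and -2.75 on the ob/ob vehicle arrays and -5.00, -4.70 and -4.65 on the wild-type arrays. Every ob/ob array stood above every wild-type array. The difference was 1.78 ± 0.21, or 3.44-fold higher (adjusted p = 0.0035). A second Ncf1 probe rose by 1.14 ± 0.17, called with an adjusted p of 0.0064 with each probe as a feature. This second probe was well above background on 2 of 3 wild-type arrays. It passed the filter only through the ob/ob groups, where it was high, so its call has less weight. No array read a further Ncf1 probe well above background.

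Ncf4, the p40phox subunit that binds a phosphoinositide of the phagosome membrane, read 0.34, 0.83 and 0.98 on the ob/ob vehicle arrays and -1.03, -0.91 and -1.49 on the wild-type arrays. The groups were fully apart. The difference was 1.86 ± 0.27, or 3.63-fold higher (adjusted p = 0.0066).

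Rac2, the GTPase of blood cells that activates the oxidase, read -0.71, -0.79 and -0.53 on the ob/ob vehicle arrays and -2.26, -2.25 and -2.29 on the wild-type arrays. The wild-type arrays lay closer together than for any other of the 7 genes, with an SD of 0.02, and the groups did not overlap. The difference was 1.59 ± 0.15, or 3.01-fold higher (adjusted p = 0.0015). After normexp correction with an offset of 50, Cybb and Ncf1 differed by 0.68 and 0.49, both still called. The calls of Ncf1, Ncf4 and Rac2 held under every alternative run, and that of Cybb ended with proximal tubule markers as a covariate (2.02, adjusted p = 0.0793).

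Nox4 read -0.99, -1.29 and -0.68 on the ob/ob vehicle arrays and -1.10, -0.65 and -0.42 on the wild-type arrays. The groups overlapped. The difference was -0.26 ± 0.22, with a 95% interval of -0.77 to 0.25 and an adjusted p of 0.531. The second Nox4 probe, printed above, read -5.06, -4.58 and -7.08 on the ob/ob vehicle arrays, against -4.53, -4.88 and -2.16 on the wild-type arrays, where replicate 3 stood far above the rest. Its difference was -1.71 ± 0.91 and not called (adjusted p = 0.298). This probe passed the filter only through wild type, with 3 of 3 wild-type arrays and 2 of 3 arrays of each ob/ob group well above background. The other 2 Nox4 probes did not pass the filter.

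Xdh read 2.84, 1.40 and 2.37 on the ob/ob vehicle arrays and 0.92, 0.55 and 0.85 on the wild-type arrays. The groups did not overlap, and ob/ob vehicle replicate 2 was nearest to the wild-type arrays. The difference was 1.43 ± 0.34, or 2.70-fold higher, called by a small margin (adjusted p = 0.0396). The call was lost without any wild-type array, without ob/ob vehicle replicate 1 or 3 and without enarodustat replicate 1 or 3, with values between 1.12 and 1.51 and adjusted p between 0.0565 and 0.1235. It was also lost without the filter on dim probes (adjusted p = 0.0879), as the mean of the Xdh probes (1.25, 0.0577), with only the groups compared (0.0746) and with tubule markers as a covariate (1.21, 0.2037). The call was further lost without the 2 arrays high in tubule markers (1.47, 0.1026) and with slide as a block (0.0623). It was kept without ob/ob vehicle replicate 2 (1.83, adjusted p = 0.0093). The probe across the intron read -0.24, -1.59 and -0.43 on the ob/ob vehicle arrays and -1.97, -2.08 and -1.40 on the wild-type arrays, groups that overlapped. It differed by 1.06 ± 0.34 (adjusted p = 0.0999), so it had the same direction and was not called. No array read a further Xdh probe well above background.

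**Figure D1:**
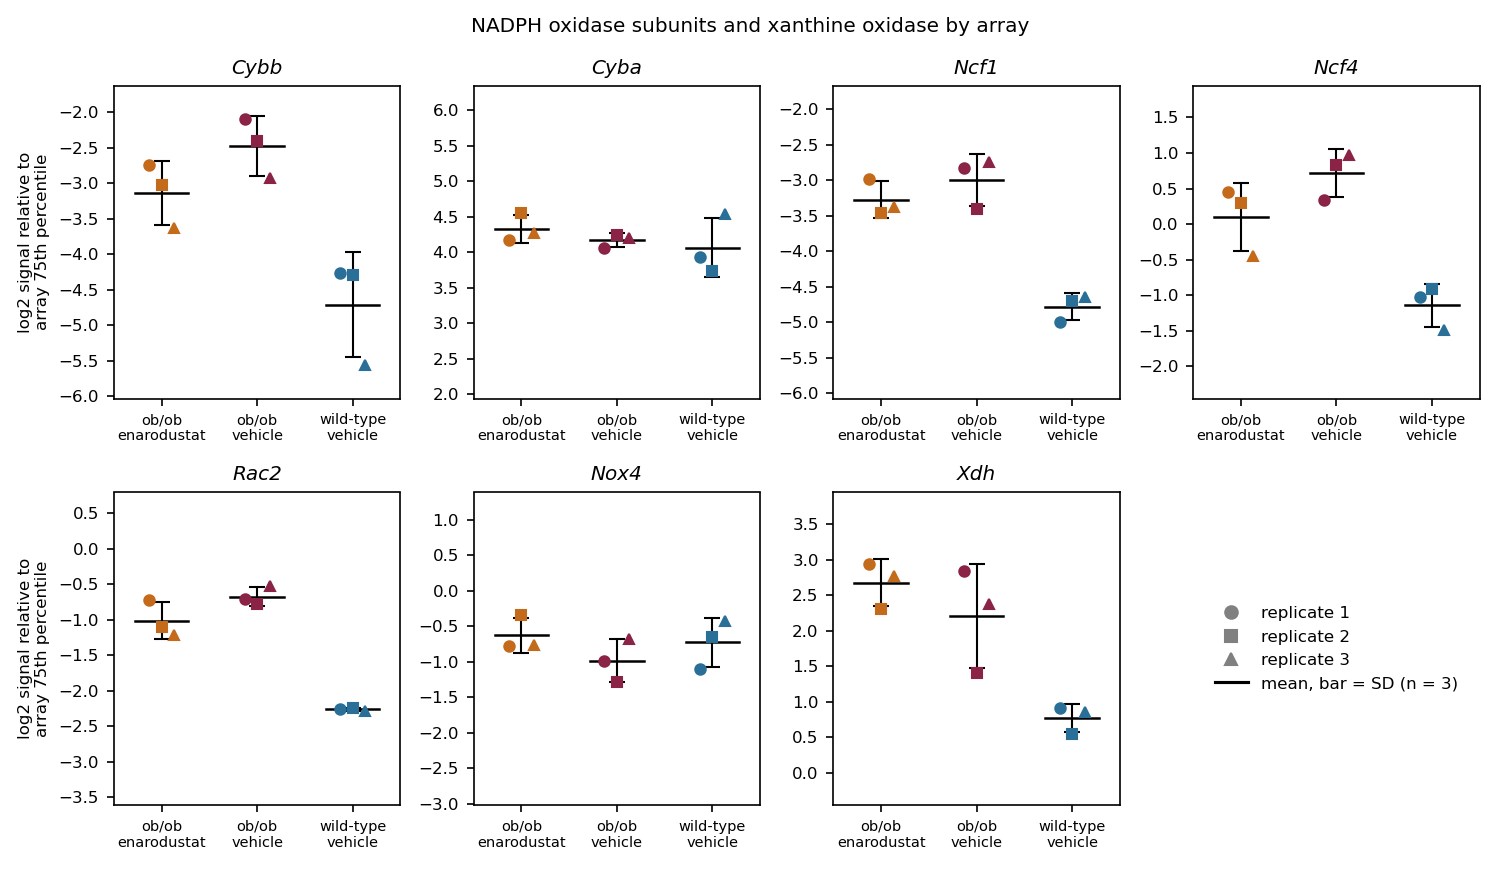
Log2 signal relative to the array's 75th percentile (vertical axis, spanning the same number of log2 units in each panel) for each gene in ob/ob enarodustat, ob/ob vehicle and wild-type vehicle glomeruli, with 1 symbol per replicate and bars for the mean and SD (n = 3). For Cybb, Ncf1, Ncf4, Rac2 and Xdh all ob/ob arrays sit above all wild-type arrays, while for Cyba and Nox4 the groups overlap.

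Set against wild type, the enarodustat group showed the same 5 genes higher. That is 5 of 7 genes called, all higher, where 10.2% of all features were called and 6.1% were called higher. The groups of these 5 genes did not overlap, with enarodustat higher, as did 16.8% of all features. The median difference was 1.25 over the 7 genes and -0.01 over all features. With the same limit on probes, 4 of 6 genes were called here too. This comparison and the last share the wild-type arrays, so they are not independent of each other.

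Among the phagocyte subunits, Cybb averaged -3.13 ± 0.45 in enarodustat glomeruli and -4.71 ± 0.74 in wild-type glomeruli (SD, n = 3 each). The fitted difference was 1.57 ± 0.39 (SE), or 2.98-fold higher (adjusted p = 0.0391), with every enarodustat array above every wild-type array and the same limit at wild-type replicate 3. The call was not stable: it was lost with any 1 enarodustat array, ob/ob vehicle replicate 1 or 2, or wild-type replicate 2 or 3 left out (1.15 to 1.82, adjusted p between 0.0503 and 0.110). It was also lost after quantile normalization (adjusted p = 0.0502) and after normexp (0.40, adjusted p = 0.0665). The same held without the filter on dim probes (0.0871), with only the groups compared (0.0679), with tubule markers as a covariate (1.49, 0.0655) and without the 2 arrays high in tubule markers (1.09, 0.1317).

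Ncf1 averaged -3.28 ± 0.26 in enarodustat glomeruli and -4.78 ± 0.19 in wild-type glomeruli, a difference of 1.503 ± 0.210 (2.83-fold, adjusted p = 0.0057). Its second probe, with the limit given above on the wild-type arrays, rose by 0.98 (adjusted p = 0.0104 with each probe as a feature). Rac2 averaged -1.01 ± 0.26 in enarodustat glomeruli and -2.26 ± 0.02 in wild-type glomeruli, a difference of 1.25 ± 0.15 (2.38-fold, adjusted p = 0.0031). The calls of Ncf1 and Rac2 held under every alternative run, with values reduced to 0.36 and 0.80 after normexp.

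Ncf4 averaged 0.10 ± 0.48 in enarodustat glomeruli and -1.14 ± 0.30 in wild-type glomeruli, a difference of 1.24 ± 0.27 (2.36-fold, adjusted p = 0.0269). Enarodustat replicate 3 was the lowest of its group at -0.45, still above the highest wild-type array at -0.91. The Ncf4 call was lost with any wild-type array or enarodustat replicate 1 or 2 left out (1.07 to 1.35, adjusted p between 0.0536 and 0.0805), without the filter on dim probes (0.0641) and without the 2 arrays high in tubule markers (0.97, 0.1439).

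Cyba differed by 0.26 ± 0.21 between enarodustat and wild type, with a 95% interval of -0.21 to 0.74 (adjusted p = 0.458). Nox4 differed by 0.10 ± 0.22, with an interval of -0.41 to 0.61 (adjusted p = 0.824), and turned to -0.09 without wild-type replicate 1, to -0.04 without enarodustat replicate 2 and to -0.15 as the mean of its probes. Neither gene was called, and both had overlapping groups.

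Xdh was the gene with the largest difference of the 7 in this comparison. It read 2.94, 2.30 and 2.78 on the enarodustat arrays, all above the wild-type arrays given above. The difference from wild type was 1.90 ± 0.34, or 3.73-fold higher (adjusted p = 0.0119), and it was called under every alternative run. The probe across the intron also rose, by 1.49 ± 0.34, with groups that did not overlap (adjusted p = 0.0287 with each probe as a feature).

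**Figure D2:**
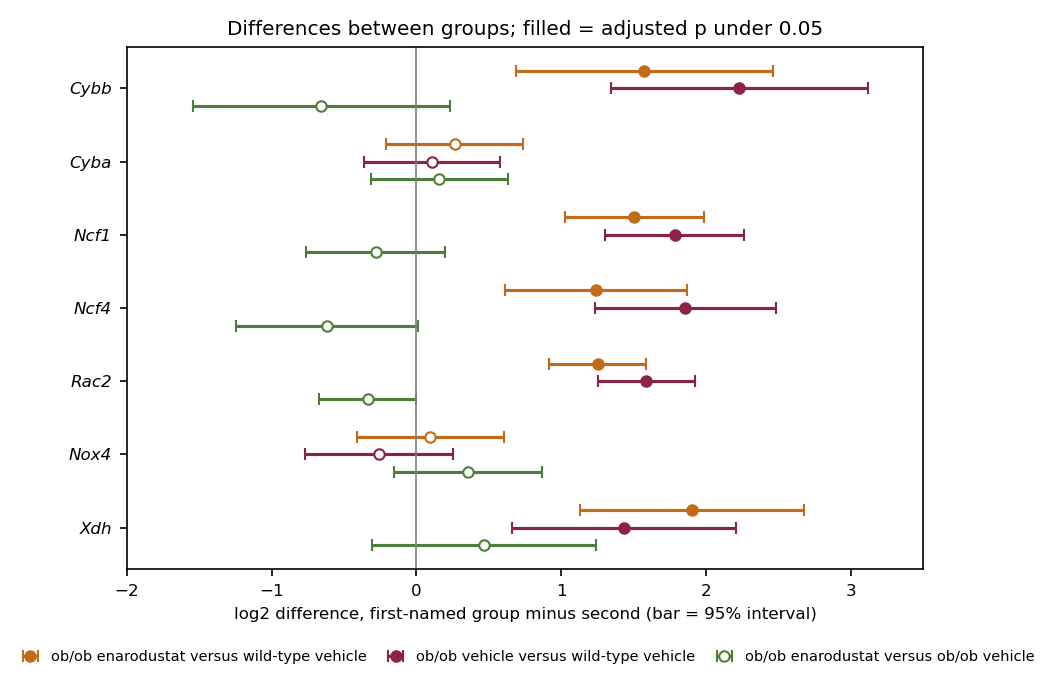
Log2 differences between groups (horizontal axis) for each of the 7 genes, with bars for the 95% interval and filled points for an adjusted p under 0.05. Both comparisons with wild type have filled points for Cybb, Ncf1, Ncf4, Rac2 and Xdh, and no point is filled for ob/ob enarodustat versus ob/ob vehicle.

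The comparison of ob/ob enarodustat with ob/ob vehicle asked what the drug changed in diabetic glomeruli. None of the 7 genes was called by limma, where 0% of all features were called. At an unadjusted p under 0.05, 1 of the 7 genes passed (Rac2), as did 7.01% of all features (1692 of 24150). The groups overlapped for all 7 genes, while 16% of all features had groups that did not. The median difference was -0.28 over the 7 genes and -0.03 over all features.

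The 4 phagocyte subunits that were high in ob/ob vehicle had negative differences. The same ob/ob vehicle arrays enter both comparisons, so these signs are not independent of the rise over wild type. For Rac2 the enarodustat arrays read -0.72, -1.098 and -1.22, against -0.71, -0.79 and -0.53 on the ob/ob vehicle arrays. Enarodustat replicate 1 lay within the vehicle range and the other 2 below it. The difference was -0.34 ± 0.15, with a 95% interval of -0.67 to -0.01 (limma adjusted p = 0.708).

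Ncf4 read 0.45, 0.29 and -0.45 on the enarodustat arrays, against 0.34, 0.83 and 0.98 on the ob/ob vehicle arrays. Only enarodustat replicate 1 lay inside the vehicle range. The difference was -0.62 ± 0.27, with an interval of -1.24 to 0.01 (adjusted p = 0.708). Cybb read -2.75, -3.02 and -3.63 on the enarodustat arrays, against -2.10, -2.40 and -2.93 on the ob/ob vehicle arrays, again with 1 enarodustat array inside the vehicle range. Its difference was -0.66 ± 0.39, with an interval of -1.54 to 0.23 (adjusted p = 0.764). Without enarodustat replicate 3, the array on slide 2, the difference was -0.35 for Ncf4 and -0.41 for Cybb. With slide as a block the values were those without this array, as it was alone on its slide.

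Ncf1 read -2.98, -3.47 and -3.38 on the enarodustat arrays, against -2.83, -3.41 and -2.75 on the ob/ob vehicle arrays. The ranges overlapped, and the difference was -0.28 ± 0.21, with an interval of -0.76 to 0.20 (adjusted p = 0.791). For the group means of Cybb, Ncf1, Ncf4 and Rac2, the order was ob/ob vehicle, ob/ob enarodustat and wild type from high to low, and the arrays of the ob/ob groups, neighbours in that order, overlapped for each gene.

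Cyba, Nox4 and Xdh had positive differences that were not called. Cyba read 4.17, 4.55 and 4.27 on the enarodustat arrays, against 4.06, 4.25 and 4.20 on the ob/ob vehicle arrays, and differed by 0.16 ± 0.21, with an interval of -0.31 to 0.63. With proximal tubule markers as a covariate it differed by -0.03. Nox4 read -0.77, -0.35 and -0.77 on the enarodustat arrays and differed by 0.36 ± 0.22, with an interval of -0.15 to 0.87 (adjusted p = 0.765). Its second probe, well above background on 2 of 3 arrays of each ob/ob group, differed by 1.32 ± 0.91. Xdh had its highest group mean under enarodustat, and its difference from ob/ob vehicle was 0.47 ± 0.34, with an interval of -0.31 to 1.24 (adjusted p = 0.786). Without ob/ob vehicle replicate 2, the low array, it was 0.07, and without ob/ob vehicle replicate 1 it was 0.79.

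**Figure D3:**
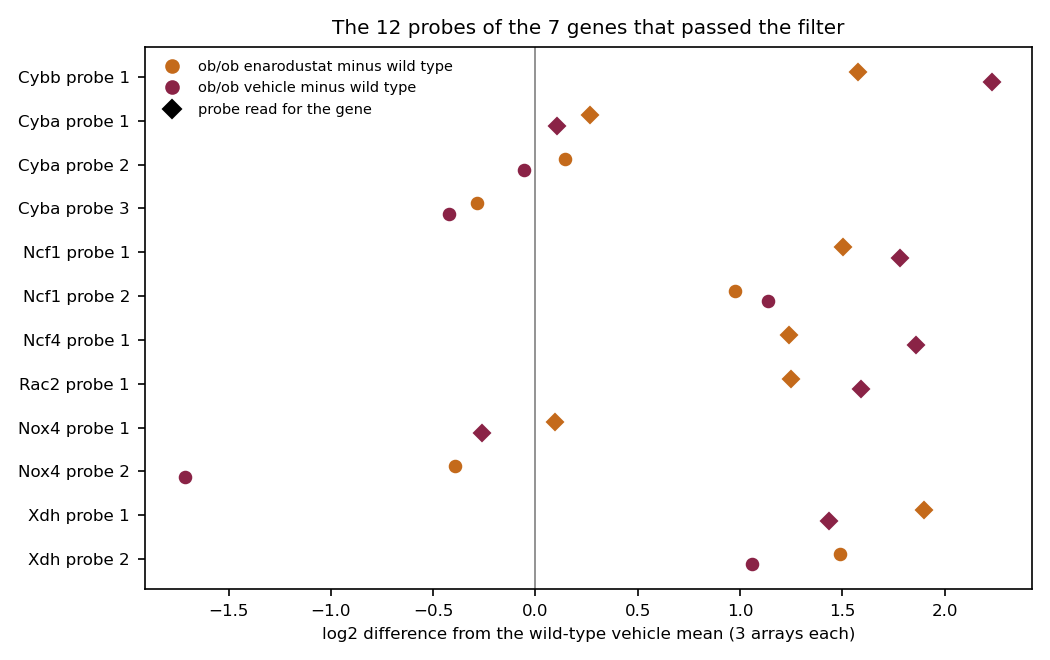
Log2 difference from the wild-type vehicle mean (horizontal axis, means of 3 arrays each) for ob/ob enarodustat and ob/ob vehicle at the 12 probes that passed the filter, with diamonds for the probe read for each gene. Both Ncf1 probes and both Xdh probes lie on the positive side in both groups, whereas the Nox4 probes range from -1.71 to 0.10. The -1.71 is from the second Nox4 probe, well above background on 2 of 3 arrays of each ob/ob group.

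The other genes of the NADPH oxidase family and its regulators were read from a list of 22, of which 20 were tested and Nox3 and Duoxa2 were not well above background. In ob/ob vehicle against wild type, 5 of the 20 rose and none fell (list median 0.26), where 4.89% of all features were called higher. They were Vav1, an exchange factor for Rac (1.87 ± 0.22, adjusted p = 0.0035), Prkcb, a kinase that phosphorylates Ncf1 (1.73 ± 0.28, 0.0088), and Hvcn1, the proton channel that balances the charge moved by the oxidase (1.47 ± 0.32, 0.0280). Arhgdib, a GDP-dissociation inhibitor of blood cells (1.09), and Rap1b, a GTPase (0.54), completed them. The Prkcb probes spread between 0.36 and 1.73, with 2 of 3 called, and of the Arhgdib probes 1 of 2 was called. With ob/ob vehicle replicate 1 or 2 or wild-type replicate 2 left out the count was 3. It was also 3 with dim probes kept in, with only the groups compared, with tubule markers as a covariate and without the 2 arrays high in tubule markers.

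In the same comparison Rac1, the broadly expressed relative of Rac2, differed by 0.36 ± 0.14 (adjusted p = 0.175) and Nox1 by 0.07 ± 0.22 (0.878). Among the dual oxidases, Duox1 differed by 1.35 ± 0.79 (0.347) and Duox2 by -0.41 ± 0.23 (0.325). Duox1 read -4.55, -1.33 and -3.88 on the ob/ob vehicle arrays, so replicate 2 stood apart. It passed the filter only through ob/ob vehicle, with 2 of 3 wild-type and 1 of 3 enarodustat arrays well above background.

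In enarodustat against wild type, 5 of the 20 rose and none fell (list median 0.12), where 6.1% of all features were called higher. Vav1 rose by 1.68, Hvcn1 by 1.67, Prkcb by 1.25, Arhgdib by 1.14 and Prkcd, another kinase of Ncf1, by 0.39. The count was 3 without wild-type replicate 1 or 2, without enarodustat replicate 1 or 2 and without the filter, and 1 without the 2 arrays high in tubule markers. In enarodustat against ob/ob vehicle none of the 20 was called, with a list median of -0.05.

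Around Xdh, a list of 21 genes covered purine breakdown, urate transport and the other molybdenum-dependent enzymes. Of these 19 were tested. No array read Uox, the enzyme that degrades urate, well above background, and Aox3 did not pass the filter. In ob/ob vehicle against wild type 6 of the 19 rose and none fell (list median 0.31), where 4.89% of all features were called higher. Ada, which deaminates adenosine, rose by 1.56 ± 0.25 (adjusted p = 0.0089), Gda, which makes xanthine from guanine, by 1.33 ± 0.31 (0.0369), and Ampd3, an AMP deaminase, by 0.79 ± 0.15 (0.0165). The urate exporter Abcg2 rose by 0.75 ± 0.15 (0.0223). The count was 3 without wild-type replicate 2, without the filter and with only the groups compared, 2 without ob/ob vehicle replicate 1, and 1 with tubule markers as a covariate.

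The other 2 that rose were a user of the molybdenum cofactor that Xdh needs and the enzyme that activates this cofactor. The list's genes for making the cofactor were not called, and had negative differences from wild type in both ob/ob groups. Aox1, aldehyde oxidase, a close relative of Xdh, read -0.07, -0.12 and -0.08 on the ob/ob vehicle arrays and -1.11, -1.11 and -1.51 on the wild-type arrays. The groups lay far apart relative to their spread, with a difference of 1.15 ± 0.14 (2.22-fold, adjusted p = 0.0035). Mocos, which adds the sulfur that activates the cofactor of Xdh and Aox1, differed by 0.69 ± 0.17 (adjusted p = 0.0455). In enarodustat against wild type 5 of the 19 rose and none fell (list median 0.24), where 6.1% of all features were called higher. They were Ada (1.203), Aox1 (1.12), Abcg2 (0.82), Ampd3 (0.79) and Mocos (0.66). That count was 3 without wild-type replicate 2 or enarodustat replicate 2, without the filter and without the 2 arrays high in tubule markers, and 2 without enarodustat replicate 3. None of the 19 was called between enarodustat and ob/ob vehicle.

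Of 9 tested genes for other oxidant-forming enzymes, 2 rose in ob/ob vehicle against wild type, where 4.89% of all features were called higher. Both are of leukotriene synthesis. Alox5ap, the activating protein of 5-lipoxygenase, rose by 1.96 ± 0.26 (adjusted p = 0.0048). Alox5 itself was not well above background on the 3 wild-type arrays, so its rise is a bound, at least 2.22-fold. The bound was taken against the lowest signal well above background on each wild-type array or the probe's own where higher. The limma adjusted p of 0.0179 belongs to the fitted difference of 1.64, which rests on those dim readings, not to the bound. Alox5 was admitted by the groups where it was high, so its call has less weight than that of Alox5ap. The count was 1 without wild-type replicate 2 or 3, after normexp, with tubule markers as a covariate, without the 2 arrays high in tubule markers and with probes well above background on all arrays, where 5 of the 9 were tested. In enarodustat against wild type both were called again, Alox5ap by 1.59 and Alox5 by at least 2.68-fold. The limma adjusted p of Alox5 (0.0096) is again that of its fitted difference, with the same limit. Of all features, 6.1% were called higher there. Maob, a monoamine oxidase, was called there too (2.35 ± 0.48, adjusted p = 0.0200), with 3 of 3 enarodustat, 2 of 3 ob/ob vehicle and 2 of 3 wild-type arrays well above background. With probes well above background on all arrays that count was 1. Maob was not called against ob/ob vehicle, with a difference of 2.15 ± 0.48 (adjusted p = 0.597). Nos3, the endothelial nitric oxide synthase, differed by 0.43 ± 0.16 between ob/ob vehicle and wild type (0.140).

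Of 15 genes that remove superoxide or peroxide, 2 rose in ob/ob vehicle against wild type and none fell, where 4.89% of all features were called higher. They were Srxn1, which repairs oxidised peroxiredoxins (0.68 ± 0.14, adjusted p = 0.0216), and Gpx1, a glutathione peroxidase (0.62 ± 0.16, 0.0498). In enarodustat against wild type Gpx1 (0.64) and Prdx4, a peroxiredoxin of the secretory pathway (0.74), were called. Of all features, 6.1% were called higher there. The counts were 0 in both comparisons without the filter, and 0 in ob/ob vehicle against wild type after quantile normalization. Without 1 array the count fell to 0 in ob/ob vehicle against wild type for wild-type replicate 2 and each ob/ob vehicle array, and to 0 in enarodustat against wild type for wild-type replicate 2 and each ob/ob array. It was also 0 there with only the groups compared and without the 2 arrays high in tubule markers. The superoxide dismutases and catalase were not called: in ob/ob vehicle against wild type Sod1 differed by 0.26, Sod2 by -0.14, Sod3 by -0.35 and Cat by 0.27.

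**Figure D4:**
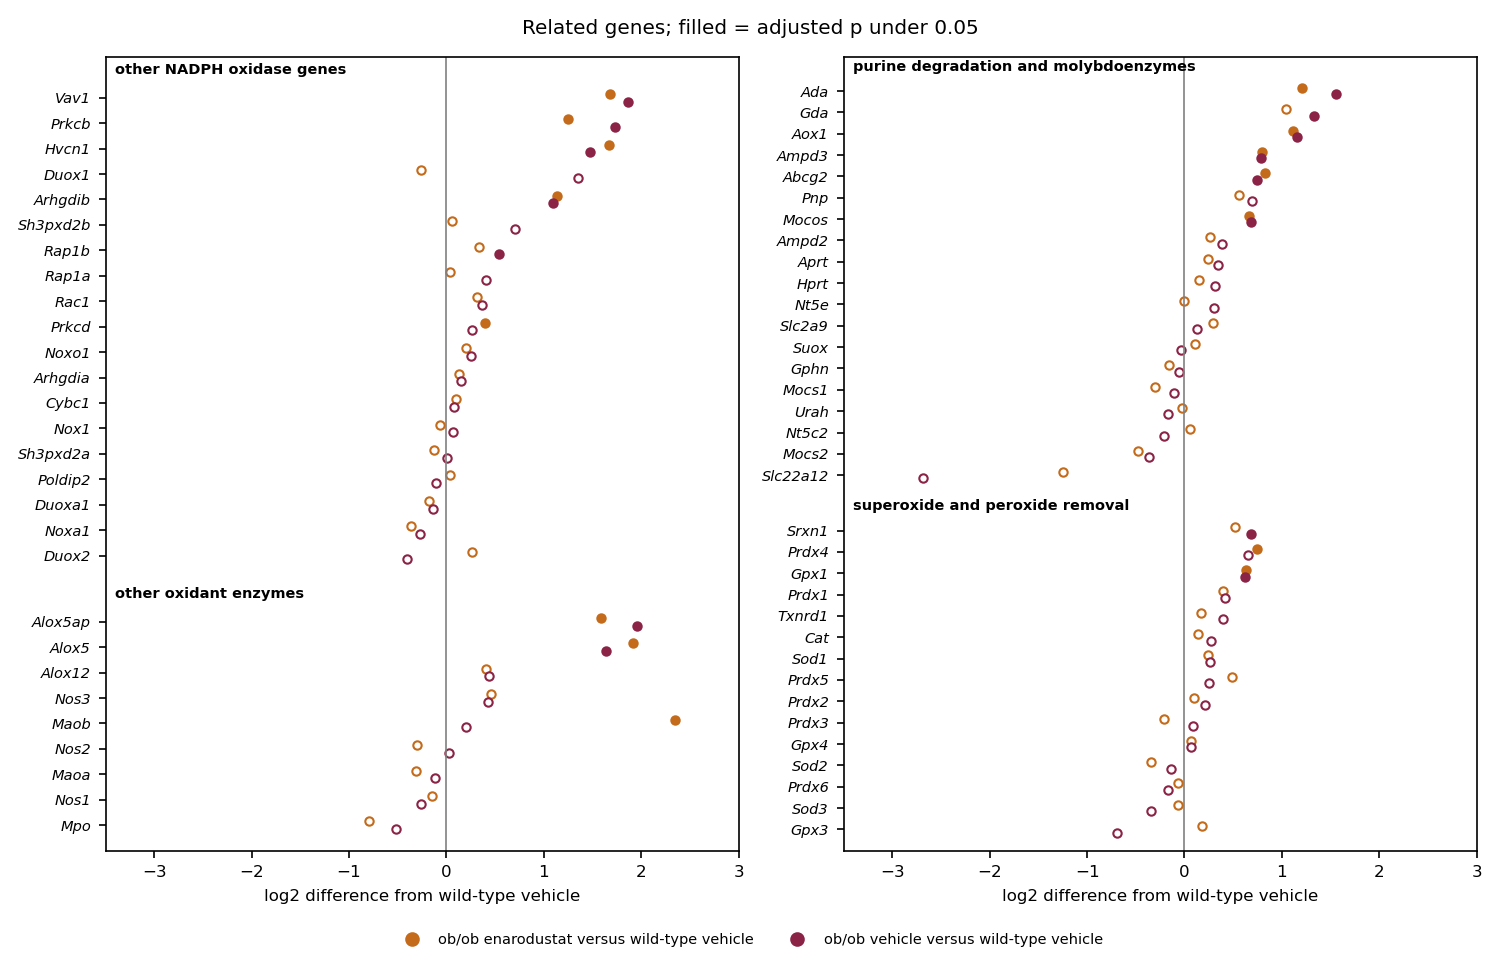
Log2 difference from wild-type vehicle (horizontal axis) for the tested genes of the 4 related lists (1 left out), in ob/ob enarodustat and in ob/ob vehicle, with filled points for an adjusted p under 0.05 and Alox5 drawn at its fitted value, not its bound. All filled points lie on the positive side, and most genes of each list have open points.

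Most phagocyte markers moved with the oxidase subunits. Of 10 markers, 9 were tested, and no array read Spi1, the gene of PU.1, well above background. In ob/ob vehicle against wild type 7 of 9 rose (median 1.44), where 4.89% of all features were called higher. They were Adgre1 (2.82), Tyrobp (2.16), Lyz2 (1.84), Fcer1g (1.82), Laptm5 (1.44), Cd68 (1.38) and Csf1r (0.91). Of the 2 Csf1r probes 1 was called, and the other differed by 0.06. The other 2 tested markers, Itgam (-0.17) and Ptprc (-0.39), had negative differences and were not called. The 4 Ptprc probes ran from -0.39, the probe read for the gene, to 1.65, with 2 called. With tubule markers as a covariate the count was 3 of 9. In enarodustat against wild type 5 of 9 rose (median 1.0995), where 6.1% of all features were called higher. That count was 3 without wild-type replicate 2 or 3, without enarodustat replicate 1 or 2 and without the filter, and 2 without the 2 arrays high in tubule markers. In enarodustat against ob/ob vehicle none was called, with a median of -0.34.

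The summed level of the 9 markers, as log2, ranged from 6.05 to 6.45 in enarodustat, from 6.44 to 6.50 in ob/ob vehicle and from 6.01 to 6.30 in wild type. A sum weighs the brightest probe most, and on every array that was the probe of Itgam, which was not called. Itgam read 5.20, 5.19 and 5.46 on the ob/ob vehicle arrays and 5.25, 5.26 and 5.87 on the wild-type arrays. The mean of Cybb, Ncf1, Ncf4 and Rac2, each set to 0 over the 9 arrays, was 0.64, 0.31 and -0.03 on the enarodustat arrays, 0.81, 0.70 and 0.83 on the ob/ob vehicle arrays and between -1.36 and -0.90 on the wild-type arrays. The mean of the 9 markers was 0.50, 0.22 and -0.16 on the enarodustat arrays, 0.74, 0.47 and 0.47 on the ob/ob vehicle arrays and -0.73, -0.57 and -0.95 on the wild-type arrays. On the enarodustat arrays both means were highest for replicate 1 and lowest for replicate 3. The part of phagocyte number in the subunit differences was not tested.

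**Figure D5:**
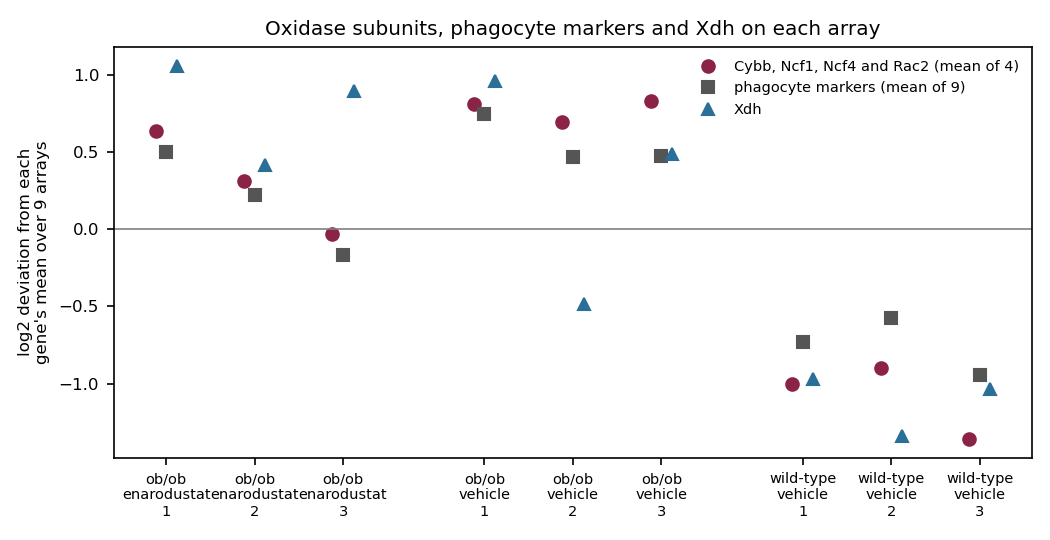
Log2 deviation from each gene's mean over 9 arrays (vertical axis) for the mean of Cybb, Ncf1, Ncf4 and Rac2, the mean of 9 phagocyte markers, and Xdh, on each array of the 3 groups. Subunits and markers are above 0 on all ob/ob vehicle arrays and below 0 on all wild-type arrays. Xdh is higher than both on every enarodustat array (0.89 on replicate 3) and on ob/ob vehicle replicate 1. It is lower than both on ob/ob vehicle replicate 2 (-0.48) and wild-type replicate 2.

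Among neutrophil markers, 1 of 6 tested rose in ob/ob vehicle against wild type, where 4.89% of all features were called higher. It was Ly6g, by 1.52 ± 0.26 (adjusted p = 0.0105), and of the 6 differences 4 were positive and 2 negative. In enarodustat against wild type 1 of 6 rose, where 6.1% of all features were called higher, and Ly6g differed by 1.65. The summed level of the 6 was 2.49, 2.70 and 5.16 on the ob/ob vehicle arrays, so replicate 3 stood apart. It ranged from 2.29 to 3.43 in enarodustat and from 1.97 to 2.95 in wild type. Of the podocyte markers, 4 of 7 fell in ob/ob vehicle and 6 of 7 in enarodustat, with medians of -0.87 and -1.09, each against wild type, where 2.66% and 4.09% of all features were called lower in ob/ob vehicle and in enarodustat. None of the 10 proximal tubule markers was called, but their summed level ranged from 4.73 to 7.28 in enarodustat, from 3.59 to 5.29 in ob/ob vehicle and from 5.60 to 8.94 in wild type. None of the 5 distal nephron markers was called, though all 5 had positive differences in enarodustat against ob/ob vehicle (median 2.44) and against wild type (1.43). Their summed level ranged from 5.55 to 6.50 in enarodustat, from 1.96 to 4.50 in ob/ob vehicle and from 2.83 to 6.44 in wild type, so the ob/ob groups did not overlap. The part of these cell types in the results was not tested.

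For each gene, likeness of pattern was measured as the root mean square difference of log2 values over the 9 arrays, after subtracting each gene's own mean. Nearest to Cybb were Tyrobp (0.23), Clec7a (0.23) and Evi2a (0.24), where the median over all named genes was 1.03. Nearest to Ncf1 were Rac2 (0.20), Galnt6 (0.21) and Celf2 (0.21), and nearest to Ncf4 were Emilin2 (0.10), Nfam1 (0.20) and Cd44 (0.21). For Rac2 they were Gabra5 (0.11), Olfr63 (0.14) and Celf2 (0.15). Rac2 and Ncf1 were thus the closest pair among the 7 genes, and Cybb and Nox4 the farthest (1.19).

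Xdh was nearest to Acer2 (0.22), Sult1a1 (0.25) and Cdc42ep4 (0.26), with a median over all named genes of 0.91. Its distance was 0.41 to Ncf1 and 0.76 to Cybb. Cyba and Nox4 varied little over the arrays, so many genes lay close to them: Shmt2 (0.07), Pramel26 (0.08) and Pde5a (0.09) for Cyba, and Nalcn (0.10), Shank2 (0.11) and Ccdc144b (0.11) for Nox4. The points of these measures share the same 9 arrays and their scaling.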

How the data were processed

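Glomerular RNA of 9 samples, in 3 groups, was labelled with Cy3 and hybridised to single-colour Agilent arrays, per the labels' protocols. The deposited scanner files give spot intensity on a linear scale, extracted with Feature Extraction 11.5.1.1 and background-subtracted, per the file headers, with probe positions in mm9. The submitters' processing notes also name limma. The deposited value table of the series holds log2 values: each column equals the log2 processed signal of its array minus a constant near the array's 75th percentile, found by comparison because no source states it (for enarodustat replicate 1 a median offset of -7.99, where minus the percentile is -8.00). Its column medians were -3.04, -2.95 and -3.05 (ob/ob enarodustat), -3.10, -3.06 and -3.06 (ob/ob vehicle), and -3.07, -3.03 and -2.93 (wild-type vehicle).

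From the intensity, log2 processed signal minus the array's 75th percentile was computed after leaving out 3671 of 62976 spots that are controls and outlier spots, which removed 32 probes. Probes were kept where all arrays of 1 or more groups read them well above background, and a gene was read from its probe of highest mean over the 9 arrays. Names came from the RefSeq table of GRCm38.p6 by accession (32975 probes), symbol (10221) or synonym (518), with 2573 kept as in the files and 10286 unnamed. The values of 1 list gene are not reported here.

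All 9 arrays were fitted with limma 3.58.1 in R 4.3.3 (data.table, version 1.17.8), as 3 groups without a block, and p-values were adjusted by Benjamini-Hochberg over 24150 features. Figures used matplotlib 3.10.9 in Python 3.11.15. The number of arrays limits the precision. Alternatives were other scalings, normexp with an offset of 50, other probe filters and probe rules, the value table, fewer groups or arrays, replicate or slide as a block, tubule markers as a covariate, and array weights.

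The 7 genes and all lists were chosen with earlier results of these data known. Named are the 7 genes, list members called in any comparison, a set of anchors, and for each gene the 3 of most similar pattern.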

Additional observations from a re-analysis of the deposited data

How the results depend on the processing

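Over the 3 comparisons, the 7 genes gave 160 alternative values each, and their sign and side of the threshold were kept in 159 of 160 for enarodustat against ob/ob vehicle, 136 for enarodustat against wild type and 143 for ob/ob vehicle against wild type. In the last, 14 lost the call and 3 changed sign, and for enarodustat against wild type 21 lost it and 3 changed sign. Sign changes were those of genes that were never called: for Cyba in ob/ob vehicle against wild type -0.0072 after quantile normalization, -0.12 as the mean of its probes and -0.0603 without wild-type replicate 2 (at most 0.342 without another array), and in enarodustat against ob/ob vehicle -0.0277 with tubule markers as a covariate. For Nox4 in enarodustat against wild type they were -0.15 as the mean of its probes, -0.0912 without wild-type replicate 1 and -0.0443 without enarodustat replicate 2 (at most 0.2486 without another array). Of the 7 genes, 3 were called in ob/ob vehicle against wild type with the tubule covariate, and in enarodustat against wild type 3 without a filter on dim probes and 3 without the 2 arrays high in tubule genes. Leaving out 1 array gave 4 to 5 called in ob/ob vehicle against wild type and 3 to 5 in enarodustat against wild type. The main counts of features, 1823 in ob/ob vehicle and 2460 in enarodustat against wild type, became 1005 and 1227 without the filter (where more features were tested) and 4181 and 4528 with array weights. The first became 625 with the tubule covariate, and the second 1365 with slide as a block and 1292 without the 2 tubule-high arrays. Leaving out 1 array gave 916 to 1774 and 1215 to 2163, lowest without ob/ob vehicle replicate 1 and wild-type replicate 2. Enarodustat against ob/ob vehicle stayed at 0 in all alternatives run. Other than for the filter and fewer arrays, the cause was not tested. Over all features, same-numbered arrays correlated from -0.31 to 0.27 (4 of 9 pairs over 0.1). Of the 9 arrays, 4 matched best with their own number. Such correlations over all features cannot show that the arrays were unpaired. In each group Cybb fell from replicate 1 to 2 to 3, and Xdh was highest in replicate 1 and lowest in replicate 2. In ob/ob vehicle against wild type, the replicate block took the SE of Cybb from 0.39 to 0.17 (limma adjusted p = 0.0031). That of Xdh went from 0.34 to 0.21 (0.0147). With the replicate block, 5, 5 and 0 of the 7 genes and 1408, 1954 and 0 features were called in ob/ob vehicle against wild type, enarodustat against wild type and enarodustat against ob/ob vehicle, which changed no call of the 7 genes. In both comparisons with wild type, normexp, whose offset is added before the log, moved Cybb and Ncf1 most of the 7 genes.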
